A study of Mus musculus with 6 samples.

Results

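NANOG ChIP-Seq in E-GFPd1 embryonic stem cells (ESCs) listed 201 regions in Esrrb-GFP medium cells that were absent from the NANOG lists of the high and the negative fraction. These medium-only NANOG regions were selected on their presence in the NANOG list of medium cells and their absence, by exact match of the interval, from the NANOG lists of high and negative cells. They are 201 of 23767 regions over all 6 lists, and 201 of 9675 regions with NANOG in at least 1 fraction. The cells were E14Tg2a ESCs, a mouse line, with the reporter Esrrb-2a-GFPd-IBIH, in which a destabilised GFP is made from the *Esrrb* locus, and all fractions came from the same line grown with LIF and fetal calf serum. After cross-linking, the top 10% of the GFP distribution was sorted as high, the 15% directly above the negative cells as medium, and cells without GFP as negative. The labels call the last fraction Esrrb-Negative in one field and Esrrb-low in another. NANOG and OCT4 were each immunoprecipitated from every fraction, which gave 6 lists from 1 library per factor and fraction, each made from pooled immunoprecipitations. There was therefore no replicate library, no test between fractions was possible, and every interval below covers counting error over regions only. The lists hold positions without peak height or read counts, so depth is unknown and it cannot be shown how far a region lay from the study's threshold.

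NANOG, OCT4 and ESRRB are transcription factors of the naive pluripotency network of mouse ESCs. OCT4 binds DNA together with SOX2 at composite Oct-Sox elements, which contain the octamer, while ESRRB is an orphan nuclear receptor that binds DNA as a monomer at a single extended site. NANOG is a homeodomain protein that shares many sites with OCT4 and that activates *Esrrb*. ESRRB is unevenly expressed in serum cultures of ESCs, and naive pluripotency is lost along with it.

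Of the 9675 NANOG regions, 4346 were listed in high and medium cells, 4842 in high cells only, 154 in all fractions, 83 in high and negative cells, 28 in medium and negative cells and 21 in negative cells only. The medium list held 4729 NANOG regions, so the medium-only regions were compared with the other 4528 NANOG regions of medium cells and with the 4842 high-only NANOG regions. These NANOG counts follow from the selection and are a description.

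The sequences below are those of medium-only NANOG regions with an exact octamer inside the region and a width of at most 300 bp, printed because OCT4 and NANOG are read out at the same regions. All positions are on mm9, counted from 1, and capitals mark the octamer ATGCAAAT or its reverse complement.
Octamer, 2437 bp from *Efhd1*, chr1:89209852-89209971, plus strand: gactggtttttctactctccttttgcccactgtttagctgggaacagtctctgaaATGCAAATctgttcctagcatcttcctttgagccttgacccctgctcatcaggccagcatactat
Octamer, inside the annotated body of *Fgfr2*, chr7:139595652-139595811, plus strand: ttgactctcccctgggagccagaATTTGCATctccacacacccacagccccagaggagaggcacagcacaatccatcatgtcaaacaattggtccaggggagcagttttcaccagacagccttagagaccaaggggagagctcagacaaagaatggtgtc
Octamer in 2 copies, no protein-coding gene within 20 kb, chr15:74218032-74218231, plus strand: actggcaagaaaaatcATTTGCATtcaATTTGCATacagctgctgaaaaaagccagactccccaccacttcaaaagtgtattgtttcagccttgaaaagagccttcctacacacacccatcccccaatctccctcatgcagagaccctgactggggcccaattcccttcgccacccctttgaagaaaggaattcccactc
Octamer, intron of *Zfhx3*, chr8:111246932-111247131, plus strand: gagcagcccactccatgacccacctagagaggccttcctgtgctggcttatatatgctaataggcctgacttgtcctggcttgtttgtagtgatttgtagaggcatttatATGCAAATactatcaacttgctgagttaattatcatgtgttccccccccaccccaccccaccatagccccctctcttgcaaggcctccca
OCT4 was listed in all fractions at the regions of chromosomes 1, 15 and 8, and in medium and negative cells at the region in *Fgfr2*. *Efhd1* encodes a calcium-binding protein and *Zfhx3* a large zinc finger homeobox factor.

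Most medium-only NANOG regions were in no OCT4 list. Here and below, regions without OCT4 are those in no OCT4 list, and OCT4 signal below the study's threshold cannot be seen in the lists. OCT4 was listed in no fraction at 144 of the 201 regions, or 71.6% (95% Wilson interval 65.1 to 77.4%). At the other 57 regions (28.4%), OCT4 was listed in at least 1 fraction, against 43.4% of all 9675 NANOG regions. OCT4 was listed in medium cells at 54 of the 201 regions (26.9%, interval 21.2 to 33.4%), against 37.0% of all NANOG regions. It was listed in high cells at 49 regions (24.4%, 19.0 to 30.8%), against 38.6%, and in negative cells at 32 regions (15.9%, 11.5 to 21.6%), against 19.1%. With any OCT4 region within 500 bp counted, the share without OCT4 was 58.7%, beside 44.6% of the other medium regions.

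**Figure D1:**
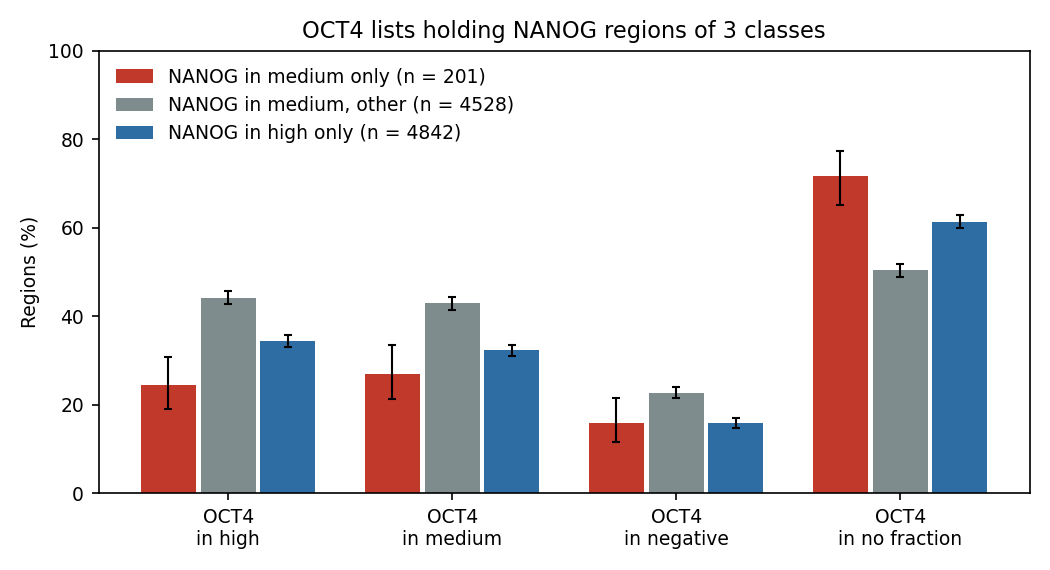
Share of regions (%, y axis) that are listed for OCT4 in high, medium or negative cells or in no fraction (x axis), for the 201 medium-only, 4528 other medium and 4842 high-only NANOG regions. Bars give the share and error bars the 95% Wilson interval, and the medium-only regions have the highest share without OCT4, 71.6% against 50.4% and 61.4%.

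Most regions with OCT4 carried it in several fractions, as was also the case outside the medium-only regions. OCT4 was listed in all fractions at 27 regions (13.4%, 9.40 to 18.8%), beside 16.1% of the 9474 other NANOG regions. At 19 regions (9.45%, 6.14 to 14.3%) it was listed in both GFP-positive fractions, beside 16.6% of the other NANOG regions. Medium and negative cells shared OCT4 at 3 regions (1.49%), beside 1.61% of the other NANOG regions, and high and negative cells at 2 (0.995%), beside 1.14%. In high cells only, OCT4 was listed at 1 region (0.498%, 0.0879 to 2.76%), beside 5.06% of the other NANOG regions. OCT4 was confined to medium cells, like NANOG, at 5 regions (2.49%, 1.07 to 5.69%), beside 2.92% of the other NANOG regions. No region had OCT4 in negative cells only, beside 0.317% of the other NANOG regions. A count of 0 of 201 allows a share of up to 1.49% when the limit is set at 3 counts (upper Wilson bound 1.88%).

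Compared with the other NANOG regions of medium cells, the share without any OCT4 was 21.3 percentage points higher (95% Newcombe interval 14.5 to 27.2). OCT4 in high cells was lower by 19.8 points (13.2 to 25.4 points lower), from 44.1% to 24.4%. OCT4 in medium cells was 42.9% among the other regions, and the difference of the medium-only regions was -16 points (-21.8 to -9.33). In negative cells the difference was -6.83 points (-11.4 to -1.01). Against the high-only NANOG regions, the share without OCT4 was 10.2 points higher (3.49 to 16.2), and OCT4 in high cells differed by -9.93 points (-15.5 to -3.41). The intervals of OCT4 in medium cells (-5.41 points, -11.2 to 1.23) and in negative cells (0.0798 points, -4.46 to 5.86) included 0 in that comparison. OCT4 in medium cells only did not differ beyond counting error from the other medium regions (-0.626 points, -2.15 to 2.61).

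These OCT4 differences from the other medium regions changed when narrow regions were left out. OCT4 peaks can widen a region, so leaving out narrow ones also selects on OCT4, and this setting cannot show whether the differences hold. With regions below the median width of the medium NANOG list left out, 60 medium-only regions remained, and no interval excluded 0 for OCT4 in high (-11.5 points, -24.1 to 0.683), medium (0.481 points, -12.3 to 11.7), negative (6.37 points, -5.03 to 19.1) or no fraction (5.31 points, -5.45 to 18). The sign thus turned for medium and negative cells. The interval in negative cells also included 0 when regions within 100 bp or 500 bp were merged (-2.23 and -2.07 points), when any OCT4 region within 500 bp was counted (-4.11 points), and without members within 1 kb of a NANOG region of high or negative cells (-3.86 points).

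The medium-only NANOG regions were narrow. At the median they spanned 60 bp (quartiles 40 and 120 bp, lowest 40, highest 820 bp). The other medium regions spanned 120 bp (quartiles 60 and 200 bp) and the high-only regions 100 bp (quartiles 60 and 180 bp). A width of 40 bp was the most frequent, with 55 regions, followed by 60 bp with 48. Each interval spans peaks merged from all libraries, so a peak of another factor or fraction can widen it, and the selection fixed where NANOG was called. The widths are therefore a description.

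Width and OCT4 went together. The 57 regions with OCT4 were 160 bp wide at the median (quartiles 100 and 200 bp), and the 144 without it 60 bp (quartiles 40 and 80 bp). None of the 55 regions of 40 bp had OCT4. An OCT4 peak that overlaps a NANOG peak can widen the merged interval, so this link of width and OCT4 is a description. The widest medium-only region, 820 bp, lay in an intron of *Etl4* at chr2:20576392-20577211 and had OCT4 in all fractions.

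**Figure D2:**
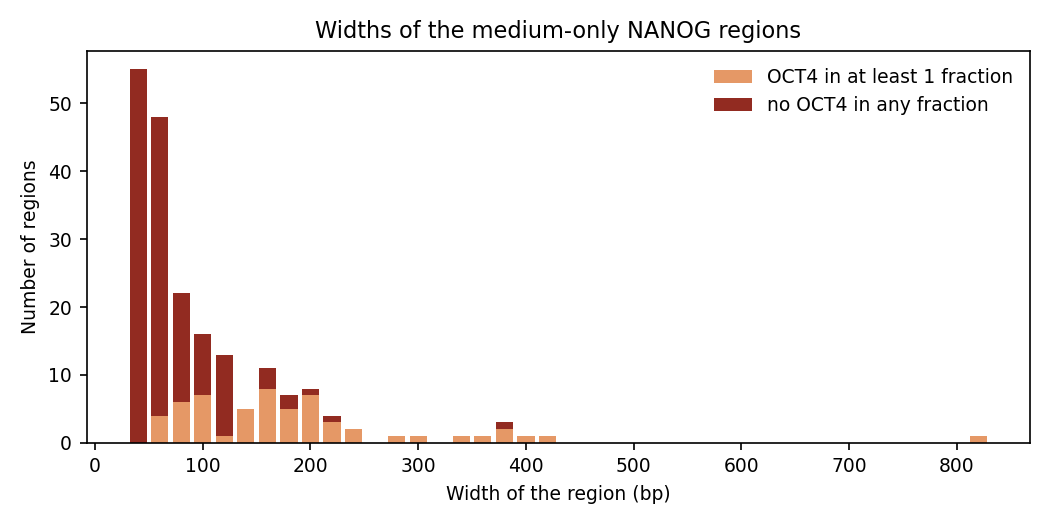
Number of medium-only NANOG regions (y axis) by width in bp (x axis), with regions that have OCT4 in at least 1 fraction (57) in light and those without OCT4 (144) in dark, stacked. The 55 regions of 40 bp hold none with OCT4, and the region of 820 bp stands alone at the right.

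When regions were split by width, the difference in OCT4 was not alike in every width class. Of the regions of 40 to 60 bp, 4 of 103 medium-only regions had OCT4 in at least 1 fraction (3.88%), against 8.36% of the other medium regions (difference -4.48 points, -7.39 to 1.38). Of the regions of 80 to 120 bp, it was 14 of 51 (27.5%) against 48.1% (-20.6 points, -31.3 to -6.86), the only width class in which the interval of this comparison did not include 0. Of the regions of 140 bp or more, it was 39 of 47 (83.0%) against 74.6% (8.36 points, -4.89 to 16.7).

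With the widths of the medium-only regions, 33.9% of the other medium regions and 29.7% of the high-only regions would have OCT4 in at least 1 fraction, beside the 28.4% observed. Against the high-only regions, the medium-only regions of 140 bp or more had OCT4 more often (16 points, 2.76 to 24.5) and those of 80 to 120 bp less often (-17.1 points, -27.8 to -3.33). The width classes were chosen after seeing the data. Because OCT4 peaks can widen a region, comparisons of OCT4 at like width, or without narrow regions, do not hold width apart from OCT4.

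**Figure D3:**
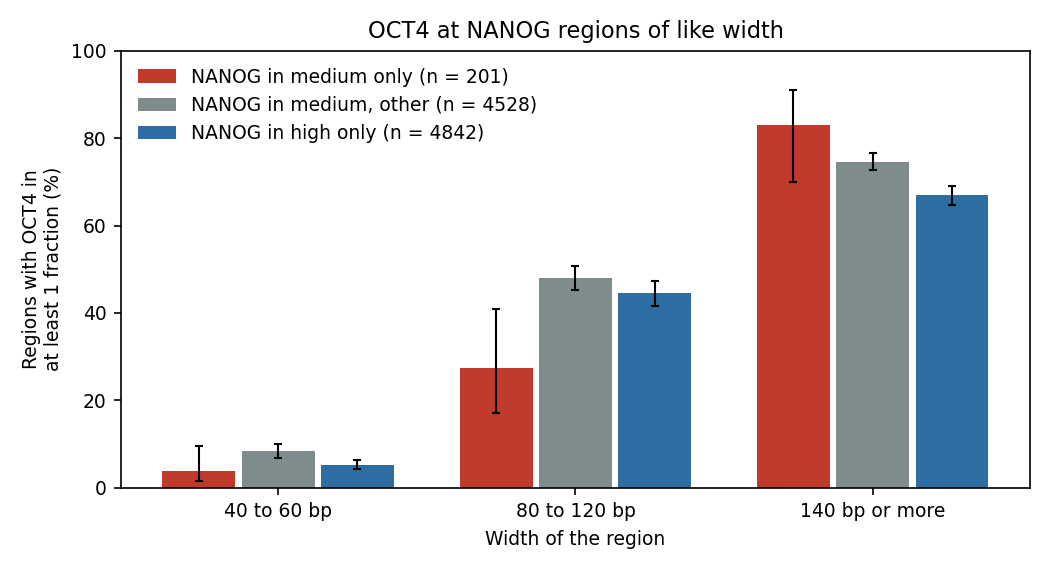
Share of regions with OCT4 in at least 1 fraction (%, y axis) by width of the region (x axis), for medium-only, other medium and high-only NANOG regions. Bars give the share and error bars the 95% Wilson interval, and the share rises with width in every class, from 3.88% to 83.0% in the medium-only regions.

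A part of the medium-only regions lay directly beside a NANOG region of high cells. A NANOG region of high cells, other than the region itself, lay within 500 bp of 39 of the 201 medium-only regions (19.4%, 14.5 to 25.4%), beside 9.89% of the other medium regions and 8.05% of the high-only regions. The selection used the NANOG list of high cells, the compared classes consist almost entirely of regions of that list, and overlapping peaks were merged, so these shares are a description and were not tested against each other. In 32 of these 39 pairs, the gap between the regions was 100 bp or less, and the median gap was 40 bp (range 20 to 500 bp). The neighbour was listed for NANOG in medium cells too in 15 pairs and not in 24. The distance of 500 bp was chosen after seeing the data.

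The pair printed next shows this arrangement in an intron of *Pknox2*, which encodes a TALE homeodomain factor, and was chosen after the values had been seen. Capitals mark the medium-only region of 40 bp, and the last 40 bases are the neighbouring NANOG region, whose NANOG call was in the high fraction but not in the medium one.
Medium-only region and its neighbour, chr9:36897832-36897931, plus strand: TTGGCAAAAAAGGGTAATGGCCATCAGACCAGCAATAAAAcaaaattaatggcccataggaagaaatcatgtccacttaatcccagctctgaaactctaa
The gap between both regions is 20 bp, and neither region was listed for OCT4 in any fraction.

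Close pairs were frequent among the narrow regions. Of the medium-only regions of 40 to 60 bp, 29 of 103 (28.2%) had a NANOG region of high cells within 500 bp, beside 14.6% of the other medium regions and 9.46% of the high-only regions of that width. Regions without OCT4 had such a neighbour at 33 of 144 (22.9%) and regions with OCT4 at 6 of 57 (10.5%). An OCT4 peak that overlaps both regions of a close pair merges them, so these shares depend on the merging and are a description. At the 162 medium-only regions with no NANOG region of high cells within 500 bp, 51 had OCT4 (31.5%).

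The higher share lay within 500 bp. Counted cumulatively, 60 medium-only regions lay within 5 kb of a NANOG region of high cells (29.9%, beside 21.4% of the other medium regions), and 89 within 20 kb (44.3%, beside 36.3%). With the closest such region further than 500 bp and within 20 kb, it was 50 regions (24.9%), beside 26.4% of the other medium regions. Of the 40 regions (19.9%) with such a neighbour within 1 kb, 39 had it within 500 bp. OCT4 regions close by were counted as well. An OCT4 region of medium cells, other than the region itself, lay within 500 bp of 14.9% of the medium-only regions, against 10.2% of the other medium regions (4.77 points, 0.403 to 10.4) and 9.89% of the high-only regions (5.03 points, 0.678 to 10.7). Within 5 kb it was 29.9%, and the interval against the other medium regions included 0 (4.10 points, -1.94 to 10.9), as it did within 1 kb (3.84 points, -0.956 to 9.81). Within 500 bp, the intervals against the other medium regions included 0 for OCT4 regions of high cells (3.37 points, -0.679 to 8.78) and of negative cells (2.85 points, -0.342 to 7.56). OCT4 peaks that overlap a region are merged into it, so these shares also depend on the merging. No region of any list lay within 20 kb of 64 medium-only regions, and 0 of the 201 regions lay within 20 kb of another.

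**Figure D4:**
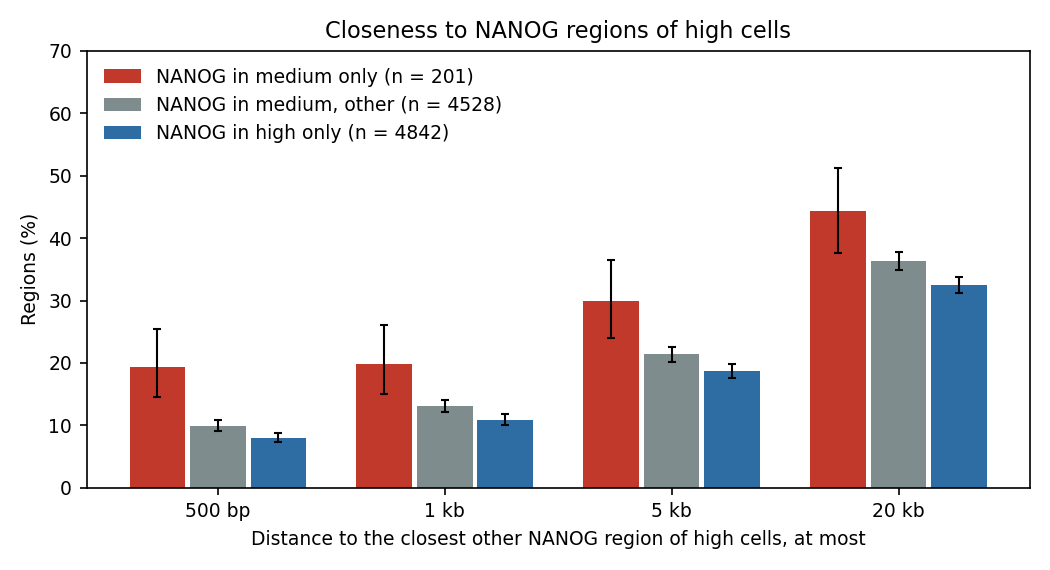
Share of regions (%, y axis) with another NANOG region of high cells within 500 bp, 1 kb, 5 kb or 20 kb (x axis), for medium-only, other medium and high-only NANOG regions. Bars give the share and error bars the 95% Wilson interval, and the medium-only regions have the highest share at each distance, 19.4% within 500 bp and 44.3% within 20 kb, shares that are cumulative.

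Motifs were searched on both strands within 100 bp of the region centre, that is in windows of 200 bp. The letters were ATGCAAAT for the octamer, an Oct-Sox element that contains the octamer (up to 2 mismatches), TCAAGGTCA for ESRRB (up to 1 mismatch), GGGCGTGG or GGGTGTGG for KLF factors, CCATTA for the NANOG core and TAATCC for the OTX2 core. KLF factors are zinc finger proteins of the naive network, and OTX2 is a homeodomain factor of cells that leave it. A match describes the letters and is no measured site.

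An octamer or Oct-Sox match was found at 9 medium-only regions (4.48%, 2.37 to 8.29%). The share was 8.04% at the other medium regions (-3.56 points, -5.82 to 0.325), 13% over all 23767 regions and 1.58% in windows 10 kb downstream of the NANOG regions. An ESRRB match was found at 25 regions (12.4%, 8.57 to 17.7%), against 17.7% (-5.23 points, -9.26 to 0.158), 11.2% over all regions and 6.62% downstream. The interval of neither difference excluded 0. The NANOG core was found at 21 regions (10.4%), with 12.7% at the other medium regions (-2.23 points, -5.88 to 2.85), 9.52% over all regions and 8.08% downstream. The OTX2 core was found at 19 regions (9.45%), with 9.03% at the other medium regions (0.420 points, -3.01 to 5.32), 7.95% over all regions and 8.78% downstream.

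Octamer and Oct-Sox matches lay almost entirely in the regions with OCT4. They were found at 8 of the 57 medium-only regions with OCT4 (14.0%, 7.29 to 25.3%) and at 1 of the 144 without OCT4 (0.694%, 0.123 to 3.83%), a difference of 13.3 points (5.90 to 24.6). The other medium regions had these matches at 12.7% with OCT4 and at 3.42% without OCT4, and the medium-only regions differed from neither beyond counting error (1.31 points, -5.59 to 12.7, and -2.73 points, -3.73 to 0.478). ESRRB matches were found at 5 regions with OCT4 (8.77%) and at 20 without (13.9%, difference -5.12 points, -13.4 to 6.10).

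The OTX2 core was instead rarer in the regions with OCT4, with 1 of 57 regions with OCT4 (1.75%) and 18 of 144 without OCT4 (12.5%), a difference of -10.7 points (-17.3 to -2.00). Its letters reversed without complementing were found at 7.02% with and 7.64% without OCT4. The OTX2 core itself was in 8.78% of the windows 10 kb downstream, so this split concerns a short motif near that rate and rests on 1 region with OCT4. At the other medium regions, the OTX2 core was found at 10.1% with OCT4 and at 8.03% without. The medium-only regions with OCT4 held it less often than those (-8.30 points, -10.3 to -0.671), while the regions without OCT4 did not differ beyond counting error (4.47 points, -0.127 to 11). Against the high-only regions it was the other way round, with an interval that included 0 for regions with OCT4 (-6.22 points, -8.18 to 1.40) and a higher share for those without OCT4 (5.98 points, 1.43 to 12.4).

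**Figure D5:**
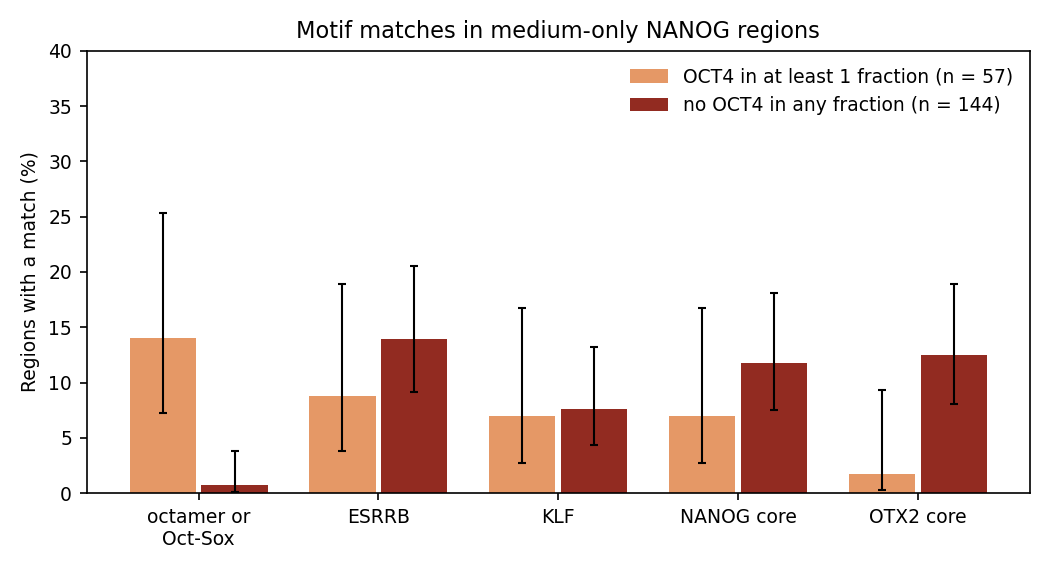
Share of medium-only NANOG regions with a motif match within 100 bp of the centre (%, y axis) for 5 motif groups (x axis), split into the 57 regions with OCT4 in at least 1 fraction and the 144 without. Bars give the share and error bars the 95% Wilson interval, and octamer or Oct-Sox matches stand at 14.0% with OCT4 and 0.694% without.

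KLF matches were more frequent at the medium-only regions, with 15 of 201 (7.46%, 4.57 to 11.9%), than at the other medium regions, with 4.31% (3.16 points, 0.200 to 7.67), or at the high-only regions, with 4.05% (3.41 points, 0.466 to 7.93). The share was 4.17% over all regions and 2.19% downstream. The difference from the other medium regions turned to -1.27 points (-7.64 to 5.67) with 1 mismatch allowed, and its interval included 0 in windows of 50 bp either side (1.99 points, -0.00834 to 5.69). B1 is a family of short interspersed repeats of the mouse, and its consensus contains both KLF letters and the OTX2 core. A stretch like B1 was found in the windows of 8 medium-only regions (3.98%, 2.03 to 7.66%), against 2.52% of the other medium regions (1.46 points, -0.550 to 5.16) and 5.32% of the windows downstream. Of the matches at the medium-only regions, 5 of the 25 ESRRB matches, 3 of the 15 KLF matches and 3 of the 19 OTX2 core matches lay in windows with such a stretch, and the part of B1 in these shares was not tested beyond leaving those windows out.

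Without these windows, the KLF share was 6.22% at the medium-only regions and 3.87% at the other medium regions, and the interval of the difference included 0 (2.34 points, -0.352 to 6.71). The ESRRB share was then 10.4% against 17.1% (-6.72 points, -10.5 to -1.51), and the octamer or Oct-Sox share 4.15% against 8.09% (-3.94 points, -6.14 to -0.0466). Both intervals excluded 0 against the other medium regions. Against the high-only regions both included 0, for ESRRB (-3.88 points, -7.58 to 1.31) and for octamer or Oct-Sox (-3.23 points, -5.40 to 0.655). The B1 search was chosen after seeing the data.

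The next sequences were chosen after the values had been seen, to show KLF letters in a window without a stretch like B1, and the OTX2 core in windows with and without it. Capitals mark the KLF letters or the OTX2 core, on either strand.
KLF letters, window without B1, chr14:33125012-33125071, plus strand: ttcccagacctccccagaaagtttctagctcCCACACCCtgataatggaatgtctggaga
OTX2 core, window without B1, chr13:64070092-64070131, plus strand: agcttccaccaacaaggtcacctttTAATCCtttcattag
OTX2 core, window with B1, chr4:122689852-122689891, plus strand: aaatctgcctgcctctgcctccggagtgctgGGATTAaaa
OCT4 was listed in no fraction at any of these 3 regions. The region on chromosome 13 lay 40 bp from a NANOG region of high cells.

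Exact ESRRB letters were found in the windows of 3 medium-only regions (1.49%, 0.509 to 4.30%). The region printed for them, chosen after the values had been seen, lay 912 bp from *Icam1*, which encodes an adhesion molecule, and was the 1 region with OCT4 in high cells only. The B1 search found no stretch in the window of this region, but with the mismatch limits used it can miss diverged copies. Capitals mark the ESRRB letters.
ESRRB letters, chr9:20819192-20819491, plus strand: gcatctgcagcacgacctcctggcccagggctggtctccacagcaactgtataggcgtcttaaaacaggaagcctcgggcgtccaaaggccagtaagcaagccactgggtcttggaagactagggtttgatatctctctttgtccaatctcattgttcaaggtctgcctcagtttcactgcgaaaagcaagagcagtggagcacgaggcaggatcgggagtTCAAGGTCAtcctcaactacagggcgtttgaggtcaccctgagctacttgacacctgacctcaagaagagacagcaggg
Repeated sequence was not frequent among the medium-only regions as a whole. In 144 of them no 32-base stretch of the window occurred elsewhere in the genome, and in 11 (5.47%) more than 50% of the stretches did, against 4.79% of the other medium regions (0.680 points, -1.80 to 4.78).

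By position, 104 medium-only regions lay between genes (51.7%), 84 in introns (41.8%) and 13 in exons (6.47%, 3.82 to 10.7%) of the GENCODE annotation of mm9. The exonic share was higher than at the other medium regions, with 2.61% (3.86 points, 1.16 to 8.16), and at the high-only regions, with 2.54% (3.93 points, 1.23 to 8.23). It was not among the planned measures. Its interval against the other medium regions included 0 in each width class, with fewer regions in each. The differences were 3.54 points at 40 to 60 bp (-0.121 to 10.2), 3.76 points at 80 to 120 bp (-0.211 to 13.8) and 3.86 points at 140 bp or more (-0.404 to 14.7). With the widths of the medium-only regions, 2.80% of the other medium regions would be exonic. Against the high-only regions, the interval excluded 0 only at 40 to 60 bp (4.03 points, 0.458 to 10.6). The shares in introns (40% at the other medium regions) and within 1 kb of a transcription start site (5.47% against 6.14%, -0.667 points, -3.17 to 3.45) did not differ beyond counting error. The median distance to a start site was 13025 bp (interquartile range 4975 to 41347 bp), against 18260 bp (5862 to 50853 bp), and median GC content was 47.5% against 47.0%.

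Among regions without OCT4, 11 of 144 medium-only regions were exonic (7.64%), against 2.76% of the other medium regions (4.88 points, 1.47 to 10.4). Of the 13 exonic regions, 7 had the centre in an untranslated region, 3 in coding sequence and 3 in an exon of a non-coding transcript. Of these 13 regions, 11 had no OCT4 in any fraction, beside 71.6% of all medium-only regions. Among them, named after their values were seen, was a region of 220 bp at chr11:4169012-4169231 in the coding sequence of *Lif*, the cytokine on which these cultures depend. It had no OCT4 in any fraction, and the closest NANOG region of high cells was 22520 bp away. A region of 100 bp at chrX:20511812-20511911 lay in an untranslated region of *Elk1*, which encodes an ETS factor downstream of ERK signalling. It had OCT4 in high and medium cells and a NANOG region of high cells 40 bp away.

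Of 22380 protein-coding genes, 221 lay within 20 kb of a medium-only region, and 144 of the 201 regions (71.6%) had such a gene within 20 kb, against 64.3% of the other medium regions (7.31 points, 0.574 to 13.3). In a list of core and naive pluripotency genes, 4 of 34 genes had a medium-only region within 20 kb, while 23 had one of the other medium regions. It was 2 of 15 genes of FGF and LIF signalling, a list that does not hold *Lif* itself (6 with another medium region), and 1 of 18 chromatin genes (14). None of 19 formative and primed genes, 22 lineage genes or 21 genes of Nodal, BMP and Wnt signalling had a medium-only region, whereas 10, 6 and 9 of them had another medium region. The other medium regions are many more, so these counts are no comparison of rates.

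The core and naive genes were *Sox2*, *Mycn*, *Jam2* and *Pecam1*. *Sox2* encodes the partner of OCT4, and its medium-only region at chr3:34564292-34564351 lay 12908 bp from the gene, in an exon of the non-coding transcript *Sox2ot* and 157 bp from a start site of it. It was 60 bp wide and had no OCT4 in any fraction. It was 1 of 8 regions within 20 kb of *Sox2*, of which 3 were listed for NANOG in high cells, 3 in medium and 1 in negative cells, and 5, 6 and 6 for OCT4 in high, medium and negative cells.

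The region of *Sox2* and those near 3 other listed genes are printed to show what the medium-only NANOG list adds at loci of the network. None holds an octamer, ESRRB or KLF match inside its bounds, although a KLF match lay in the wider window at *Jam2*. The OTX2 core at *Pecam1* is in capitals.
*Sox2*, chr3:34564292-34564351, plus strand: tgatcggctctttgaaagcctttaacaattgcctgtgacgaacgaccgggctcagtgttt
*Jam2*, chr16:84780032-84780151, plus strand: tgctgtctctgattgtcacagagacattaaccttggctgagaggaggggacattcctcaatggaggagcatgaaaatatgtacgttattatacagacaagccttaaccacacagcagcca
*Pecam1*, chr11:106499172-106499331, plus strand: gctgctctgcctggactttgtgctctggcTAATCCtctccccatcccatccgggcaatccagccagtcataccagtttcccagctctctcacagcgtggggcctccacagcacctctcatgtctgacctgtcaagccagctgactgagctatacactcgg
*Jarid2*, chr13:44946972-44947031, plus strand: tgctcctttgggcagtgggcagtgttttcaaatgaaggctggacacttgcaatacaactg

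*Mycn*, a MYC family gene, had a medium-only region of 40 bp in its untranslated region at chr12:12943432-12943471, again without OCT4 in any fraction. Among the 7 regions within 20 kb of *Mycn*, 2 were listed for NANOG in high cells and 3 in medium cells, and OCT4 was listed at 4, 6 and 4 of them in high, medium and negative cells. *Jam2* encodes a junctional adhesion molecule, and its region of 120 bp lay in an intron, 5461 bp from a start site, without OCT4. *Pecam1*, which encodes an adhesion molecule used as a surface marker of naive cells, had a region of 160 bp 16199 bp away with OCT4 in all fractions. At each of these 4 genes, other regions were listed for NANOG in high cells, from 2 to 3 per gene.

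*Jarid2*, a component of Polycomb repressive complexes, had a medium-only region of 60 bp in an intron at chr13:44946972-44947031 with OCT4 in all fractions. It was 1 of 12 regions within 20 kb of the gene, of which 5 were listed for NANOG in high cells. *Erbb3*, which encodes a receptor of the EGF receptor family, had a region of 200 bp 11903 bp away, at chr10:128038612-128038811, with OCT4 in medium cells only. This was the only NANOG region of medium cells within 20 kb of *Erbb3*, where high cells had another NANOG region. *Fgfr2*, an FGF receptor gene, has the region of 160 bp printed above with OCT4 in medium and negative cells. The annotation gives *Fgfr2* a body from 137305965 to 140315033 on chromosome 7, and the region was 719301 bp from the closest start site of the gene, so its place in *Fgfr2* rests on this annotation.

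OCT4 was confined to medium cells, as NANOG was, at 5 regions. Besides *Erbb3*, the closest protein-coding genes were *Eif4a2* (a translation initiation helicase, 4425 bp), *Hnrnpc* (an RNA-binding protein, 6923 bp), *Zfp423* (a zinc finger factor, 8777 bp) and *Gm13251* (region in an intron). Their widths were 160 bp at *Eif4a2*, 340 bp at *Hnrnpc* and 200 bp at each of the other 3. The region near *Hnrnpc*, at chr14:52685792-52686131, was the only region of any list within 20 kb of that gene. The region near *Eif4a2* lay 40 bp from a NANOG region of high cells.

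Of all 201 medium-only regions, 39.8% lay in introns and 5.97% in exons of protein-coding genes. Of the 27 regions with OCT4 in all fractions, 11 lay inside a protein-coding gene, each in an intron. The genes were *Kng2*, which the limit of 10 genes left out and which is named after its values were seen, *Hlcs*, *Pi4ka*, *Rnf220*, *Spna2*, *Spock1*, *Vps26a*, *Zfhx3* and *Zfp532*, besides *Jarid2* and *Etl4*. These encode, among others, a biotin ligase (*Hlcs*), a lipid kinase (*Pi4ka*), a spectrin (*Spna2*) and a subunit of retromer (*Vps26a*). Their widths ranged from 60 bp at *Jarid2* to 820 bp at *Etl4*. At *Pi4ka* and *Spna2*, the medium-only region was the only region of any list within 20 kb of the gene. *Etl4* was the only gene with 2 medium-only regions within 20 kb, the other being 200 bp wide at chr2:20518932-20519131 without OCT4, and it had 29 regions in all.

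Of the 11 medium-only regions within 1 kb of any annotated start site, 10 had no OCT4 in any fraction, beside 71.6% of all medium-only regions. The share within 1 kb of a start site was 1.75% with OCT4 and 6.94% without, and the interval of the difference included 0 (-5.19 points, -10.7 to 2.97). The regions within 1 kb of a start site of a protein-coding gene lay at *Cenpv*, *Gm17507*, *Lemd1*, *Mpnd*, *Osbpl7*, *Prelp* and *Vwc2*, and at a start site region shared by *Fam33a* and *Prr11*. These 8 had no OCT4 in any fraction, and their widths ranged from 40 to 100 bp. *Cenpv* encodes a centromere protein and *Vwc2* a secreted antagonist of BMP. At *Mpnd*, *Osbpl7* and *Prelp*, no other region of any list lay within 20 kb of the gene.

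The regions were spread over all chromosomes, with from 5 to 15 per autosome, 5 on chromosome X and 1 on chromosome Y, where NANOG had no region in high cells. Over the whole classes, 39 shares were compared with the other medium regions, and the intervals of 14 differences did not include 0. Against the high-only regions it was 16 of 39. These counts include width and closeness to NANOG regions of high cells, which the selection shapes. They leave out the comparisons within width classes, by OCT4 status, without B1 windows, of protein-coding genes within 20 kb and under other settings. The intervals are not adjusted for the number of comparisons, and several of the measures overlap.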

How the data were processed

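NANOG and OCT4 ChIP-Seq libraries of 3 sorted fractions, 1 per factor and fraction, were grouped by the labels. Reads were aligned by the authors with Bowtie to mm9, per the submitters' processing notes, peaks were called with SISSRs in GeneProf and merged over datasets, and binding was called lost below 50% of the strongest depth-normalized signal of a region. The deposited lists hold intervals only, with widths in steps of 20 bp and no counts. Starts were read as 0-based and printed from 1.

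Regions in the medium NANOG list but in neither other NANOG list were taken by exact match. Shares have 95% Wilson and differences 95% Newcombe intervals. The gene models, 37310 in all, were those of GENCODE on mm9, with distances taken to the gene body. B1 was searched with 3 stretches of its consensus of 15, 19 and 21 bases, with up to 2, 3 and 3 mismatches. A simple repeat was a run of at least 20 bases of a unit of 1 to 4 bases.

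The members and gene lists were chosen with earlier results of these data known. Named genes are listed genes with a region within 20 kb, genes with 2 or more regions, genes with a region within 1 kb of a start site, and the closest genes of regions with OCT4 in medium cells only or in all fractions, at most 10 of each. Alternatives changed merging, membership, windows, mismatches and distances. Functions were tested on simulated data. Tools were samtools 1.23.1 and pysam 0.24.0 for sequence, Python 3.11.15 with statsmodels 0.14.6, scipy 1.17.1 and numpy 2.4.6 for shares, and matplotlib 3.10.9 for figures.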

Additional observations from a re-analysis of the deposited data

How the results depend on the processing

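No paired analysis was possible because each factor and fraction has 1 library. Over 20 results, 42 of 86 values under other settings lay inside the interval of the reported value, or within 1.5 times of a reported count, and an overlap of 1 bp in place of an exact match changed nothing. The difference between the medium-only and the other medium regions in the share without OCT4 ranged from 5.31 to 21.3 points over 9 settings. Its interval included 0 only when narrow regions were left out, which also selects on OCT4 because OCT4 peaks can widen a region.

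When only regions reaching the median width of the NANOG list of medium cells were used, there were 60 medium-only regions. OCT4 was then listed at 53.3% in high, 63.3% in medium, 38.3% in negative, 8.33% in medium cells only and at none in 33.3%, beside 64.8%, 62.9%, 32%, 4.35% and 28% of the other medium regions, so that the differences in medium (0.481 points) and negative cells (6.37 points) and in medium cells only (3.98 points) turned positive. Octamer or Oct-Sox matches were at 11.7%, the NANOG core at 3.33% and the OTX2 core at 1.67%, a difference of -7.41 points from the other medium regions (-9.24 to -0.143). With regions within 100 bp merged, OCT4 was at 31.5% in high, 35.7% in medium, 22.0% in negative cells and at none in 61.9%. Within 500 bp merged, these were 34.0%, 37.7%, 24.1% and 59.3%, and the median width was 100 bp. Counting any OCT4 region within 500 bp gave 34.3%, 37.8%, 22.4% and 58.7%. The interval of the OCT4 difference in negative cells included 0 under each of these settings, and without members within 1 kb of a NANOG region of high or negative cells (-3.86 points, -9.31 to 3.02).

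With windows of 50 bp either side, shares were 4.98% for ESRRB, 3.98% for KLF and 3.98% for the OTX2 core. With 250 bp, they were 8.46% for octamer or Oct-Sox, 22.4% for ESRRB, 13.9% for KLF, 21.4% for the NANOG core and 18.9% for the OTX2 core, and median GC content was 46.0%. The KLF interval included 0 at 50 bp (1.99 points, -0.00834 to 5.69) and the ESRRB interval excluded 0 at 250 bp (-6.76 points, -12.1 to -0.379). Other mismatch limits gave 15.4% for octamer or Oct-Sox (up to 3 in Oct-Sox, chosen after seeing the data), 1.49% for exact ESRRB and 34.3% for KLF with 1 mismatch, where the other medium regions had 35.6% and the KLF difference turned to -1.27 points (-7.64 to 5.67). Within 5 kb of a start site lay 25.9%. A NANOG region of high cells lay within 500 bp of 19.4% (added), 1 kb of 19.9% and 20 kb of 44.3%, and an OCT4 region of medium cells within 1 kb of 17.9% and 20 kb of 49.8%. Simple repeats were at 1.99%, or 0.498% with runs of 30 bases. Protein-coding genes were 125 within 5 kb, 374 within 50 kb and 143 as closest genes only. In regions of 40 to 60 bp, an alternative added later, the exonic difference was 3.54 points (-0.121 to 10.2). With 1 library each, no setting can separate fractions from libraries, and the lists give no depth.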
